A study of Papilio xuthus with 16 samples.

Results

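Thoracic and abdominal green epidermis of Papilio xuthus larvae in the fourth instar was compared at 5 stages of the fourth molt. Papilio xuthus is a swallowtail butterfly whose caterpillars change, at this molt, to the green pattern of the final instar. The thoracic samples came from thoracic segment 2 where it carries no marking. The abdominal samples came from unmarked skin of abdominal segments 3 to 4. The stages were intermolt (day 2 of the fourth instar) and 1, 4, 10 and 13 h after head capsule slippage, the moment at which the old head capsule separates from the new head. Each stage gave 1 thoracic and 1 abdominal sample, so that 10 green samples on 10 of the 16 arrays of the series were used, in 5 pairs of equal age. On the same arrays the red dye held the eyespot of thoracic segment 3 (beside each thoracic sample) or the V-shaped marking of abdominal segments 4 to 5 (beside each abdominal sample). The labels give no genetic change or treatment for any group. The strain, the number of larvae in a sample and whether muscle and fat body were cleared from the skin used for the arrays are not given in the sources used here, so the p-values measure the spread between these 5 pairs only.

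The identity of an insect segment is set by the Hox genes, a family of homeobox transcription factors that are each active over a stretch of the body axis. Sex combs reduced acts at the head and the front of the thorax, ultrabithorax from the rear of the thorax into the abdomen, and abdominal A in the abdomen, as worked out in Drosophila. The green of the caterpillar mixes a blue bile pigment, carried by bilin binding proteins, with yellow carotenoids, for which members of the takeout/juvenile hormone binding protein (takeout/JHBP) family are candidate carriers. Melanin enzymes, cuticular proteins and the ecdysone response genes make and time the new cuticle over which these colours are seen.

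The 3 Hox genes named in the tables used here lie at the centre of a comparison between segments, and stretches of 60 bases from the homeobox of their cloned cDNA fragments are shown because they tell how far the genes can be told apart by sequence. They were read from the study's supplementary list of sequences. Capitals mark the 15 positions at which the 3 stretches are not all the same.
sex combs reduced: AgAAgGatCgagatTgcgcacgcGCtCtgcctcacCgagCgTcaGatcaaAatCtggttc
ultrabithorax: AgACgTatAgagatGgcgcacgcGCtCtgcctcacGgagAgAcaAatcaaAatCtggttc
abdominal A: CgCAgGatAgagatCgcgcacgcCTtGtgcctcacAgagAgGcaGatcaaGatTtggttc
Sex combs reduced and ultrabithorax shared 52 of the 60 bases, sex combs reduced and abdominal A shared 48, and ultrabithorax and abdominal A shared 47. The fragments held 108, 173 and 224 bases. The array probes of these genes were not among the sequences used here, and signal from related genes was not tested.

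Levels below are green (Cy3) processed signals brought to a common 75th percentile, in arbitrary units, averaged on the log2 scale over the probes of a cDNA sequence. A difference is the log2 level in the thorax minus that in the abdomen, given as the mean ± SD over the 5 pairs. Before scaling, the 75th percentile lay between 2600 and 4720, and 78.0 to 86.9% of the Papilio xuthus probes were well above background in a sample. No spot was saturated, and no 2 samples shared more than 1.25% of their values. The abdominal array at 1 h carried a dim corner, outlined after its values were seen (row 133 and above with column 55 and above, and row 177 and above with columns 19 to 48). In it, 13.9% of the probes were more than 4-fold dimmer in the abdomen, against 1.80% elsewhere on the same array and 1.04 to 2.26% in the same place at the other stages. The corner held 1062 of the probes used, from 997 sequences before the filter. Results whose sign or count rests on it are also given without those probes, or said to rest on it. A signal not well above background carries no reliable order, and counts over pairs and means include such signals, as said where they matter. Adjusted p-values come from limma with stage as a block and Benjamini-Hochberg adjustment over the 3215 sequences tested, of 3380 on the array. An exact two-sided sign-flip test over 5 pairs cannot go below 0.0625, so it could not pass 0.05 for any gene.

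The regions differed in few sequences at that threshold. Of the 3215 sequences, 7 passed (0.218%), 1 higher and 6 lower in the thorax (0.0311% and 0.187%), and none of these 7 was among the 489 tested sequences with a gene name in the tables used here. An unadjusted p under 0.05 was reached by 455 sequences (14.2%). The mean difference lay above 0 for 1568 sequences and below 0 for 1647. The thorax was higher in all 5 pairs for 184 sequences (5.72%) and lower in all 5 for 317 (9.86%). That split depended on the scaling, since without any scaling between arrays it was 398 higher and 124 lower, and centring on the ribosomal protein genes gave 211 higher and 275 lower. Without scaling the median of all sequences was 0.14, against -0.01 with it. Treating stage as a random block, which assumes one shared correlation for all sequences, raised the number of calls to 69 (2.15%), 5 higher and 64 lower in the thorax, and 17 of the 69 were named. Without the dim corner 8 of 3120 sequences passed, 6 of them among the 7 above, again with none named. One of the 7 calls, AK403529, was lost under both changes, with an adjusted p of 0.132 with stage as a random block and 0.0804 without the dim corner.

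The spread of the difference over sequences was not the same at every stage, each of which had 1 array for each region, so that stage and array cannot be told apart. The SD of the difference over all sequences was 0.63 at intermolt, 0.95 at 1 h, 1.07 at 4 h, 0.78 at 10 h and 0.57 at 13 h, and the value at 1 h was 0.73 without the dim corner. At 4 h, 19.4% of the sequences were more than 2-fold apart, against 7.47% at 13 h. Differences at 4 h and at 10 h correlated at Pearson's r = 0.58 across the 3215 sequences, which are not independent replicates. The 13 h pair was on the same slide as these, with r = -0.01 against 4 h and 0.10 against 10 h. Between the other stages r lay between -0.07 and 0.32.

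Sex combs reduced, the most anterior of the 3 Hox genes, was higher in the thorax at every stage but the last. Its signal was 66.8, 46.4, 65.4, 217 and 95.3 in the thorax, against 40.3, 28.8, 37.8, 102 and 104 in the abdomen (intermolt, 1, 4, 10 and 13 h, the order used throughout). Its 1 probe was well above background in all 5 thoracic samples and in 3 of the 5 abdominal samples, but not in the abdomen at 1 and 4 h. The difference was 0.63 ± 0.45 (SD, n = 5 pairs) with an adjusted p of 0.242, so it did not pass the threshold. Ultrabithorax rested on 1 of its 2 probes, which at intermolt and 1 h failed to reach well above background in both regions, and was bright in both from 4 h on. That probe gave 9.54, 10.2, 1537, 3507 and 2384 in the thorax, against 5.07, 9.30, 962, 2598 and 1764 in the abdomen. The thorax was higher at 4, 10 and 13 h. Neither sample of the other 2 pairs was well above background, and with them the mean was 0.52 ± 0.30 (adjusted p = 0.232). The second probe was well above background in 1 sample of each region, at 4 h. There it gave 180 in the thorax, against 69.9 in the abdomen, the same order as the first probe. At 10 and 13 h, where the first probe was bright, the second gave 16.1 and 19.2 in the thorax, against 28.6 and 29.6 in the abdomen. Those dim readings carry no reliable order. Why the 2 probes lay so far apart in level, and which of them reports the gene, was not tested. The first probe read 0.52 for the eyespot minus the V-shaped marking. Abdominal A read 9.97, 5.82, 13.8, 15.5 and 33.3 in the thorax, against 15.7, 10.5, 29.5, 19.7 and 33.0 in the abdomen. It was well above background in 1 sample of each region, the thorax at 13 h and the abdomen at intermolt, and was too dim to be tested.

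**Figure D1:**
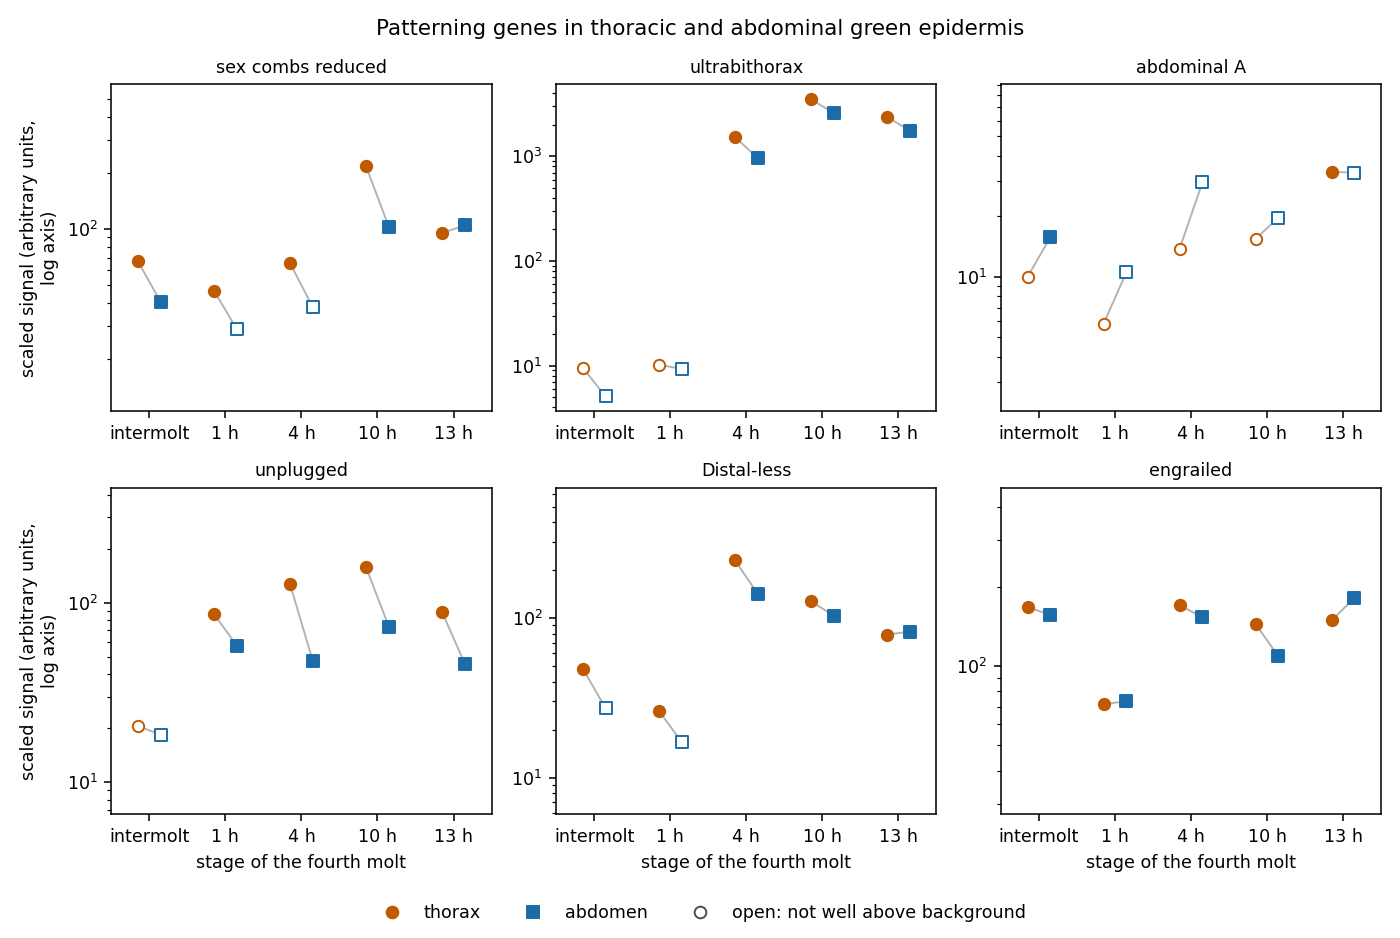
Scaled signal (log axis) of 3 Hox genes, unplugged, Distal-less and engrailed in thoracic (left of each pair) and abdominal green epidermis at the 5 stages, with open symbols for samples not well above background; each symbol is 1 sample and lines join a pair. The ultrabithorax probe plotted is bright from 4 h on in both regions, and sex combs reduced lies higher in the thorax in 4 of 5 pairs.

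Among the other patterning genes, unplugged, a homeobox gene needed in the Drosophila tracheal system, was higher in the thorax in all 4 pairs in which it was well above background. It read 20.5, 86.3, 127, 157 and 88.4 in the thorax, against 18.4, 57.7, 47.2, 73.4 and 45.6 in the abdomen. At 0.84 ± 0.49 it had the largest mean difference of the 10 tested members of this list, with an adjusted p of 0.197 (0.0474 with stage as a random block). Distal-less, the homeobox gene of the distal limb, read 48.2, 26.2, 231, 127 and 78.8 in the thorax, against 27.2, 16.7, 142, 104 and 82.1 in the abdomen. The difference was 0.48 ± 0.36 with an adjusted p of 0.277, from 1 usable probe of 4 that was not well above background in the abdomen at intermolt and 1 h. Engrailed, which marks posterior compartments, read 167, 71.6, 170, 144 and 149 in the thorax, against 156, 73.5, 153, 109 and 181 in the abdomen. The regions overlapped for engrailed, at 0.07 ± 0.25 (adjusted p = 0.859), and 1 of its 2 probes was usable. Of the 16 patterning genes on the list, 10 could be tested and none passed the threshold. A mean above 0 was found for 9 of the 10, against 1568 of all 3215 sequences tested. Higher in all 5 pairs were 2 (ultrabithorax and unplugged, each with at least 1 pair not well above background), against 5.72% of all sequences. The list's median difference was 0.28, against -0.01 over all sequences tested. Achaete, aristaless, cut, optomotor blind and wingless joined abdominal A as too dim to test.

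Bilin binding protein 1 was brighter in the thorax early in the molt and level with the abdomen at its end. Bilin binding proteins are lipocalins that hold the blue bile pigment. The signal of bilin binding protein 1 was 86324, 52474, 131036, 303001 and 291003 in the thorax, against 35301, 16435, 52235, 214923 and 323217 in the abdomen. The abdomen was dimmer at every stage up to 10 h and brighter at 13 h. The difference was 0.93 ± 0.74, with all 7 probes between 0.84 and 1.01, and an adjusted p of 0.251. Its log2 differences by stage were 1.29, 1.67, 1.33, 0.50 and -0.15. Bilin binding protein 2 followed the same order, at 36595, 42727, 67847, 253934 and 282817 in the thorax, against 18796, 17078, 42493, 206568 and 283850 in the abdomen. Its mean was 0.65 ± 0.53 (adjusted p = 0.273), but single probes ran from -1.17 to 1.13, and the 13 probes differed in sign. Between the markings of the same arrays the values had the other sign, -0.76 for bilin binding protein 1 and -1.32 for bilin binding protein 2 (eyespot minus V-shaped marking). The test of the green against the marking difference gave adjusted p-values of 0.513 and 0.468, so a difference between these 2 contrasts was not shown.

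Bilin binding protein 3 had the opposite order and was much dimmer in the thorax at 4 and 10 h. One of its probes is shown because it carried the largest regional gap among the bilin binding proteins.
bilin binding protein 3 probe: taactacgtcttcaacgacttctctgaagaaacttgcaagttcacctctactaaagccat
The probe lies in the coding sequence and was taken from the study's list of probes. It read -1.45, and the 3 usable probes of the gene lay between -1.45 and -1.40. The gene's signal was 28672, 69350, 8353, 2649 and 3142 in the thorax, against 69660, 86819, 46396, 23795 and 2829 in the abdomen. The abdomen was brighter at the first 4 stages and the regions met at 13 h. The stage differences were -1.28, -0.32, -2.47, -3.17 and 0.15, and the mean of -1.42 ± 1.40 had an adjusted p of 0.303. The marking contrast gave -1.19.

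Bilin binding protein 4 was well above background at 10 and 13 h in both regions, with 16.6, 9.25, 9.68, 326 and 1891 in the thorax, against 8.11, 19.2, 17.3, 225 and 3389 in the abdomen. The groups crossed, at -0.23 ± 0.95 (adjusted p = 0.806). Yellow related gene, a gene tied to yellow coloration in Papilio larvae, read 1508, 22.2, 55.2, 35512 and 52765 in the thorax, against 603, 23.4, 50.4, 26608 and 60691 in the abdomen. It was brighter in the thorax at intermolt and 10 h and differed little elsewhere, at 0.32 ± 0.61 (adjusted p = 0.583). Single probes of yellow related gene ran from -0.82 to 0.95. In the list of these 5 genes none passed the threshold, the median difference was 0.32 and no member had the same sign in all 5 pairs.

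**Figure D2:**
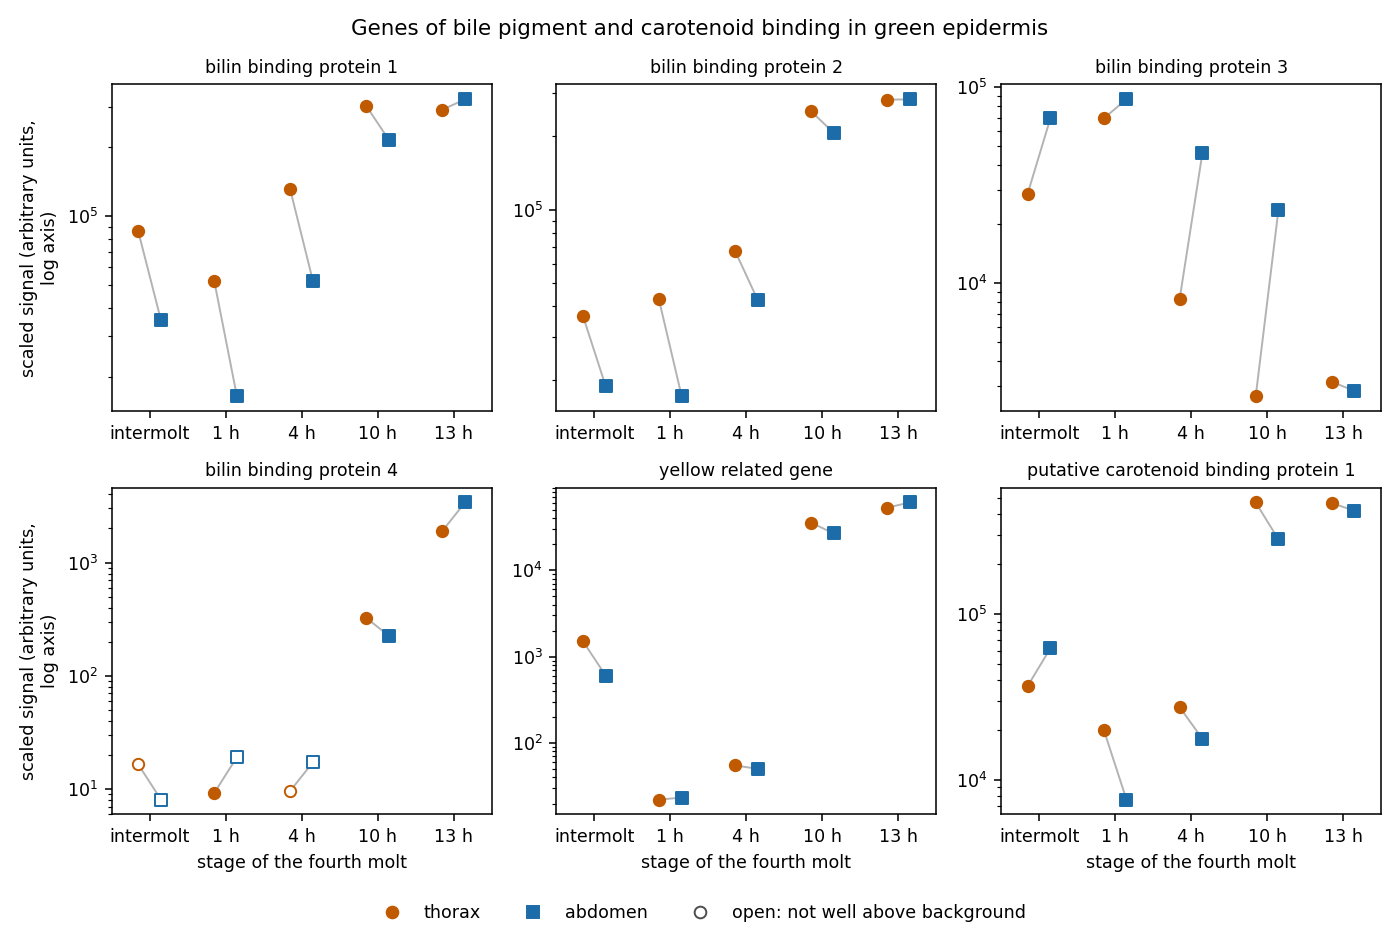
Scaled signal (log axis) of the 4 bilin binding proteins, yellow related gene and putative carotenoid binding protein 1 in thoracic (left of each pair) and abdominal green epidermis at the 5 stages; each symbol is 1 sample, lines join a pair and open symbols were not well above background. Bilin binding proteins 1 and 2 lie higher in the thorax up to 10 h, bilin binding protein 3 lies lower there up to 10 h, and the regions meet at 13 h.

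The putative carotenoid binding protein 1, a takeout/JHBP protein, was among the brightest genes in both regions late in the molt. Its probe is shown because yellow pigment is the other component of the green.
putative carotenoid binding protein 1 probe: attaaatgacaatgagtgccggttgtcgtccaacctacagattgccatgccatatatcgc
This probe, in the coding sequence, gave 0.39 ± 0.83. The signal over its 4 probes was 36844, 20107, 27392, 471390 and 467063 in the thorax, against 62265, 7604, 17671, 282103 and 420837 in the abdomen. The thorax was dimmer at intermolt and brighter at the other stages, and the mean of 0.43 ± 0.80 had an adjusted p of 0.562. Putative carotenoid binding protein 2 read 61.7, 75.9, 730, 1729 and 2936 in the thorax, against 54.1, 89.5, 318, 2635 and 4602 in the abdomen. It crossed between stages, at -0.02 ± 0.76 (adjusted p = 0.987), and the sign of its mean changed with the scaling.

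Among the other takeout/JHBP genes, which are secreted proteins of a family that includes carriers of juvenile hormone, the member Px-0064 stood out at 1 and 4 h. It read 2563, 117, 391, 280885 and 496993 in the thorax, against 724, 10.3, 11.7, 214666 and 479665 in the abdomen. The abdomen was not well above background at those 2 stages, where its readings of 10.3 and 11.7 give no exact fold. At intermolt, 10 and 13 h the differences of Px-0064 were 1.82, 0.39 and 0.05, and its adjusted p was 0.298. Px-0404 gave 0.92 ± 0.74 and Px-0150 gave 0.89 ± 0.93, with adjusted p-values of 0.251 and 0.334. Over the 9 members of the family 4 means lay above 0 and 5 below, and none passed the threshold. In all 5 pairs 1 member was higher in the thorax, against 5.72% of all sequences. The family's median of -0.02 was close to that of all sequences.

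Laccase2, the oxidase that hardens and darkens new cuticle, was higher in the thorax at every stage. Its signal was 297, 6607, 56208, 2353 and 918 in the thorax, against 97.6, 3489, 25917, 1691 and 539 in the abdomen. The gap was widest at intermolt and narrowest at 10 h, with stage differences of 1.61, 0.92, 1.12, 0.48 and 0.77. The mean was 0.98 ± 0.42, all 5 probes lay between 0.81 and 1.07, and the adjusted p was 0.129. Between eyespot and V-shaped marking the same gene read 0.98. Yellow-h2, of the yellow family of secreted proteins, was also higher in all 5 pairs, with 43.3, 3749, 341155, 30910 and 5330 in the thorax, against 38, 2442, 110601, 22104 and 3895 in the abdomen. Its difference was 0.67 ± 0.55 (adjusted p = 0.277). Catecholamines up, which in Drosophila regulates the first enzymes of dopamine synthesis, was the third gene of this list with the thorax higher throughout, by 0.26 ± 0.15 (adjusted p = 0.352).

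Yellow, the gene needed for black melanin, read 1989, 109, 1375, 381 and 501 in the thorax, against 1935, 113, 1031, 658 and 69.6 in the abdomen. Its difference of 0.49 ± 1.39 rested on the last stage, where the thoracic level was 501 and the abdominal 69.6, and it had an adjusted p of 0.706 and a mean of -0.10 without the 13 h pair. Silver, a carboxypeptidase gene that affects cuticle colour in Drosophila, lay lower in the thorax in 4 of 5 pairs, at -0.39 ± 0.35 (adjusted p = 0.353). Of the 8 tested members of the yellow family and melanin list none passed the threshold. A mean above 0 was found for 7, against 1568 of all 3215 sequences tested. Higher in all 5 pairs were 3, against 5.72% of all sequences. The median difference was 0.37, against -0.01 over all sequences.

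Cuticular proteins, the structural proteins laid down with chitin, gave differences in both directions. Cuticular protein PxutCPR77, with the chitin-binding motif of the CPR class, was higher in the thorax in all 5 pairs. It read 569, 59.7, 244, 1199 and 360 in the thorax, against 108, 23.3, 181, 627 and 88.2 in the abdomen. The mean difference of PxutCPR77 was 1.43 ± 0.80 with an adjusted p of 0.156 (0.0325 with stage as a random block). Its 7 probes ranged from 0.10 to 2.15, a wide spread within 1 gene.

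PxutCPR41C was higher in the thorax in all 5 pairs as well, and was bright at intermolt and late in the molt. It read 144337, 1915, 163, 251301 and 308132 in the thorax, against 102263, 895, 32.2, 133615 and 253251 in the abdomen, a difference of 1.03 ± 0.80 (adjusted p = 0.242) from a single probe that was not well above background in the abdomen at 4 h. PxutCPR76b was well above background at 1, 10 and 13 h in the thorax, and at 10 h only in the abdomen, and it entered the test mainly through the thorax. At 10 h its thoracic level was 3652 and its abdominal level 148. Its adjusted p was 0.277. PxutCPR54 and PxutCPR18 were also higher in all 5 pairs, by 0.67 ± 0.46 and 0.41 ± 0.15, although neither intermolt sample was well above background for PxutCPR18. PxutCPR38 was the only CPR gene lower in the thorax in all 5 pairs, by a small margin (-0.18 ± 0.18). PxutCPR146 was higher in the thorax at every stage but 4 h, with a mean of 1.21 ± 1.41. It reached 5014 in the thorax at 13 h, against 494 in the abdomen.

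In the glycine-rich CPG class, PxutCPG21 was lower in the thorax at every stage. Its signal was 26052, 858, 62.0, 83717 and 133717 in the thorax, against 40105, 1953, 115, 101313 and 174293 in the abdomen. The mean was -0.67 ± 0.37, its 3 probes lay between -0.70 and -0.65 and the adjusted p was 0.205. PxutCPG19C read 14948, 1003, 170, 1352 and 48764 in the thorax, against 8733, 57.0, 31.9, 1254 and 80628 in the abdomen. It stood apart at 1 and 4 h, and the mean of 1.34 ± 1.94 had an adjusted p of 0.456. PxutCPG20 was higher in the thorax in all 5 pairs with every probe, but in 4 of 5 without the dim corner (0.41 ± 0.27; 1 h difference -0.0015 without the dim corner). Also higher in all 5 pairs were PxutCPT3 of the CPT class (0.55 ± 0.40) and PxutCPH30 of the CPH class (0.29 ± 0.20).

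By class, the median difference was 0.27 over 28 CPR genes, 0.08 over 21 CPG genes, 0.21 over 5 CPT genes and -0.11 over 6 CPH genes. The CPFL class, with 2 genes, had a median of 0.80. The thorax was higher in all 5 pairs for 4 CPR, 2 CPG, 2 CPT and 1 CPH genes, against 5.72% of all sequences. It was lower in all 5 for 1 CPR and 1 CPG gene, against 9.86% of all sequences. Means ran from -0.84 to 2.12 in the CPR class and from -0.87 to 1.34 in the CPG class. In the CPT class they ran from -1.46 to 0.60, and in the CPH class from -0.80 to 0.81. No cuticular protein gene passed the threshold.

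The 9 osiris genes, a family of membrane proteins expressed in cuticle-forming epithelia, all had a mean above 0, but without the dim corner 7 of the 9 did, since osiris 9D and osiris 9F then lay just under 0. Of all 3215 sequences tested, 1568 had a mean above 0. The median of the family was 0.38, against 0.37 without the dim corner and -0.04 without the 10 h pair. Osiris 9E, whose signal peaked sharply at 1 h, read 18.2, 112446, 268, 45.2 and 13.9 in the thorax, against 4.89, 84182, 156, 40.5 and 14.3 in the abdomen, a difference of 0.64 ± 0.76 (adjusted p = 0.393). It was well above background at 1 and 4 h only. Osiris 9A gave 0.64 ± 0.52, although neither intermolt sample nor the abdomen at 13 h was well above background, and osiris 2 gave 0.47 ± 0.46, where neither intermolt sample was. None of the 9 passed the threshold. The 10 genes of chitin turnover and apolysis, the separation of old cuticle from epidermis, had a median of 0.13 and no member with the same sign in all 5 pairs.

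Genes that answer ecdysone and juvenile hormone, the hormones that time the molt, showed no member with 1 sign in all 5 pairs. Nuclear hormone receptor E75A, an early ecdysone target, read 84.3, 1180, 372, 105 and 591 in the thorax, against 55.2, 1477, 344, 124 and 829 in the abdomen. Both regions peaked at 1 h, the mean was -0.07 ± 0.44 (adjusted p = 0.902), and without the dim corner, which held 1 of its 2 probes, it was 0.07. ETS transcription factor E74, another early target, had at 4 h a signal of 80.7 in the thorax, against 11.3 in the abdomen (not well above background), but crossed at 1 h. Its mean was 0.62 ± 1.47 (adjusted p = 0.644). 3-dehydroecdysone 3b-reductase, which returns an oxidized ecdysteroid precursor to the hormone pathway, read 32886, 13601, 3138, 71089 and 66136 in the thorax, against 20659, 8888, 1503, 99002 and 95239 in the abdomen. It was brighter in the thorax up to 4 h and brighter in the abdomen at 10 and 13 h, at 0.27 ± 0.72 (adjusted p = 0.706). With every probe the 13 tested genes of the list had a median of -0.07, 4 means above 0 and 9 below. E75A was one of the 9, so that split rests in part on the dim corner. The median and split without the corner are not given here.

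The 76 ribosomal protein genes differed little between regions, with a median of 0.03 and no member of 1 sign in all 5 pairs. At 1 h, 7 of them were more than 2-fold brighter in the thorax, by 1.12 to 4.12, and all 7 had a probe in the dim corner. Without those probes the same 7 genes read -0.03 to 0.22 at 1 h.

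Muscle markers had lower means in the thorax, although none passed the threshold. Of the 17 markers of muscle, all tested, 16 had a mean below 0 and 12 were lower in the thorax in all 5 pairs, against 9.86% of all sequences. Of the 17, 14 had an unadjusted p under 0.05 (14.2% of all sequences). With stage as a random block 10 of the 17 were called lower, against 1.99% of all sequences. The list's median was -0.96, against -0.01 over all sequences, and its stage medians were -0.69, -1.14, -1.71, -0.87 and -0.25. The summed signal of the markers ranged from 290854 to 904392 in the thorax and from 560861 to 1268690 in the abdomen. No marker was at 0, and 16 of the 17 were well above background in all 10 samples. In whole pieces of skin, fewer muscle cells and less RNA per cell cannot be told apart.

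Tropomyosin 1, which lies along the thin filament of muscle, had the lowest adjusted p of these markers, and a probe of it is shown for that reason.
Tropomyosin 1 probe: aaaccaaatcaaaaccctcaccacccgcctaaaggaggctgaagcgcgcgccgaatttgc
The probe, in the coding sequence, read -1.21 ± 0.54. The gene's signal was 44646, 19137, 16698, 27223 and 50923 in the thorax, against 92502, 45242, 66824, 60709 and 76744 in the abdomen. Each thoracic sample lay below the abdominal sample of its stage, the mean was -1.21 ± 0.51, all 5 probes lay between -1.26 and -1.14, and the adjusted p was 0.102 (0.00536 with stage as a random block). Troponin T, which holds the calcium switch on that filament, read 42957, 16553, 26506, 39039 and 59021 in the thorax, against 61441, 33915, 90282, 76669 and 83135 in the abdomen, a difference of -0.96 ± 0.52 (adjusted p = 0.168). Muscle myosin heavy chain, the motor of the thick filament, gave -1.07 ± 0.62 (adjusted p = 0.193).

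Arginine kinase, which buffers ATP in insect muscle, had the most negative mean of the list. It read 24016, 8239, 4109, 4502 and 7358 in the thorax, against 70649, 36592, 37175, 11105 and 5543 in the abdomen. The thorax was lower up to 10 h and higher at 13 h, and the mean of -1.56 ± 1.31 had an adjusted p of 0.251. Z band alternatively spliced PDZ-motif protein 66, of the sarcomere's border, was lower in the thorax in all 5 pairs (-1.20 ± 0.62, adjusted p = 0.154). Muscle-type actin A1 was lower in all 5 as well, at -0.53 ± 0.40. Muscle specific protein 300, a linker of nuclei and cytoskeleton, was the marker with a mean above 0, at 0.20 ± 0.20.

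**Figure D3:**
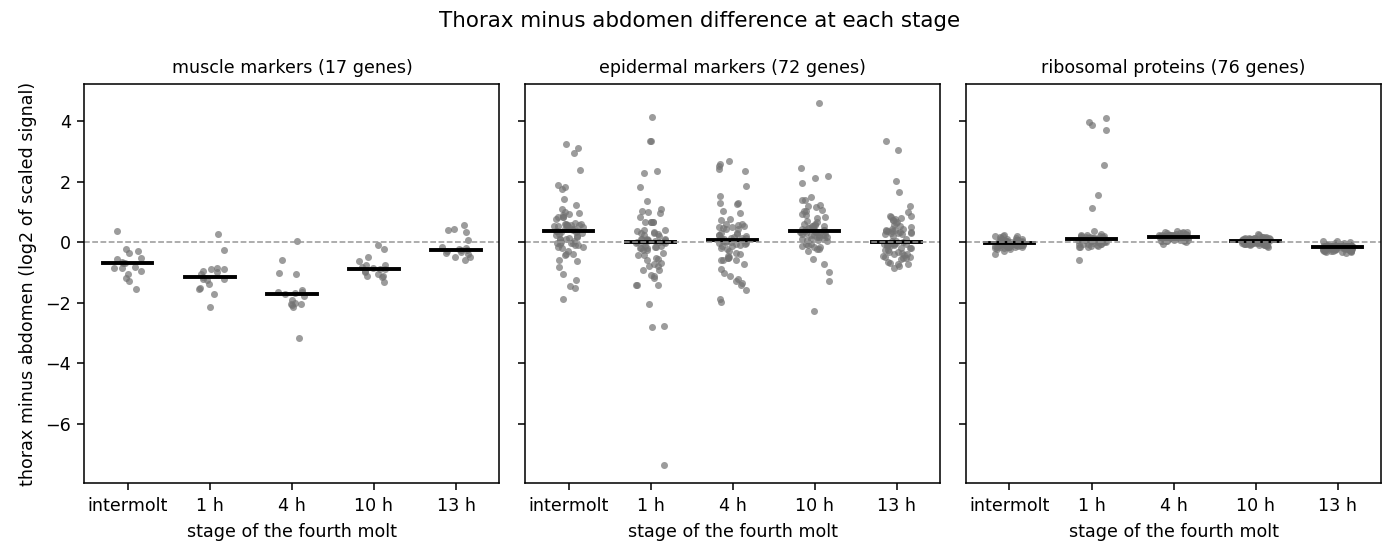
Log2 difference, thorax minus abdomen, at each stage for 17 muscle markers, 72 epidermal markers and 76 ribosomal protein genes; each point is 1 gene and the bar is the median. The muscle median lies below 0 at every stage, between -1.71 at 4 h and -0.25 at 13 h, while the ribosomal median stays within 0.18 of 0.

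Genes of energy metabolism also had lower means in the thorax, and none passed the threshold. All 6 genes of glycolysis, ATP synthase and porin had a mean below 0, and 5 were lower in the thorax in all 5 pairs, against 9.86% of all sequences. With stage as a random block 2 of the 6 were called lower, against 1.99% of all sequences. Fructose-bisphosphate aldolase, a glycolytic enzyme, read 863, 402, 340, 549 and 806 in the thorax, against 1708, 984, 1666, 1375 and 1200 in the abdomen, a difference of -1.29 ± 0.63 (adjusted p = 0.13). Glyceraldehyde 3 phosphate dehydrogenase 2, a later enzyme of that pathway, gave -1.01 ± 0.55 (adjusted p = 0.168). The difference of both was most negative at 4 h, the stage with the lowest muscle median, and the part of muscle in these values was not tested.

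Markers of other tissues were dimmer in the thorax on average but not at every stage. Collagen type IV, of the basement membrane, read 18819, 20789, 12434, 5397 and 9085 in the thorax, against 27433, 30978, 47038, 17424 and 4315 in the abdomen, and sparc, which binds collagen there, read 1443, 2065, 1593, 737 and 1159 in the thorax, against 2609, 3177, 4812, 1791 and 585 in the abdomen. Both were lower in the thorax up to 10 h and higher at 13 h, with means of -0.73 ± 1.19 and -0.67 ± 1.00. Larval serum protein 1 gamma, a storage protein of the fat body, had at intermolt a signal of 71707 in the thorax, against 121996 in the abdomen. At 4 and 13 h neither region was well above background, and at 10 h only the abdomen was. Its mean of -0.51 ± 1.83 depended on the 10 h pair, and was 0.22 without it. Ferritin 1 heavy chain homologue, an iron store, gave -0.47 ± 0.35. None of these 4 passed the threshold. The 72 tested epidermal markers (cuticular proteins, osiris genes and chitin deacetylases) had a median of 0.24. Of these markers 49 had a mean above 0 and 23 below, against 1568 and 1647 of all sequences. In all 5 pairs 12 were higher in the thorax (13 without the dim corner), against 5.72% of all sequences, and 2 were lower, against 9.86%. Their summed signal ranged from 1028460 to 7371800 in the thorax and from 934675 to 5633560 in the abdomen.

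The lowest adjusted p of any sequence belonged to AK404757, an unnamed cDNA. It read 1549, 177, 508, 489 and 847 in the thorax, against 5575, 610, 2157, 1636 and 2346 in the abdomen. Every thoracic sample lay below its abdominal partner by a similar factor, the mean was -1.79 ± 0.22, and the adjusted p was 0.0186. Its 2 probes lay between -1.83 and -1.74, and the marking contrast gave -1.78. The other 5 sequences called lower in the thorax, also unnamed, had means between -1.74 and -0.91 and adjusted p-values of 0.0449 to 0.0465. AK403529, lost under the changes above, was one of these 5. AK403794 was the sequence called higher in the thorax. It read 2667, 304, 181, 450 and 1441 in the thorax, against 1033, 88.6, 43.9, 86.0 and 502 in the abdomen, a difference of 1.82 ± 0.41 (adjusted p = 0.0449) with both probes between 1.63 and 2.02. All 7 called sequences had the same sign between eyespot and V-shaped marking, where none passed. The share of all sequences with the same sign is not given here. Both contrasts use the same arrays, so they are not independent. Ribosomal protein L7, with a probe in the dim corner, read 4.12 in green skin and 4.59 between the markings at 1 h. The muscle median was below 0 at each of these stages, and its part in the 6 lower sequences was not tested.

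AK404079, unnamed as well, was picked because detection separated the regions. It was well above background in none of the 5 thoracic samples and in 4 of the 5 abdominal samples, with 138, 165, 131, 1378 and 38.6 in the abdomen. Thoracic readings under the lowest signal well above background on their array were set to that signal, which is not a strict detection limit. On that basis the mean over the 5 pairs was 4.81-fold lower in the thorax. The mean includes the abdominal reading of 38.6 at 13 h, under that array's lowest such signal of 58.7. The adjusted p of the fit on the measured values, 0.102, did not pass, and the sequence entered the test through abdominal samples alone. Between eyespot and V-shaped marking this sequence read 0.06. Of the sequences tested, no other was well above background in 1 region only. The transcript similar to CG4239, a Drosophila gene number, was lower in the thorax in all 5 pairs, with 3080, 1085, 386, 1466 and 2223 in the thorax, against 9115, 4938, 2083, 3655 and 3897 in the abdomen. Its difference was -1.66 ± 0.66 (adjusted p = 0.102, 0.00439 with stage as a random block).

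**Figure D4:**
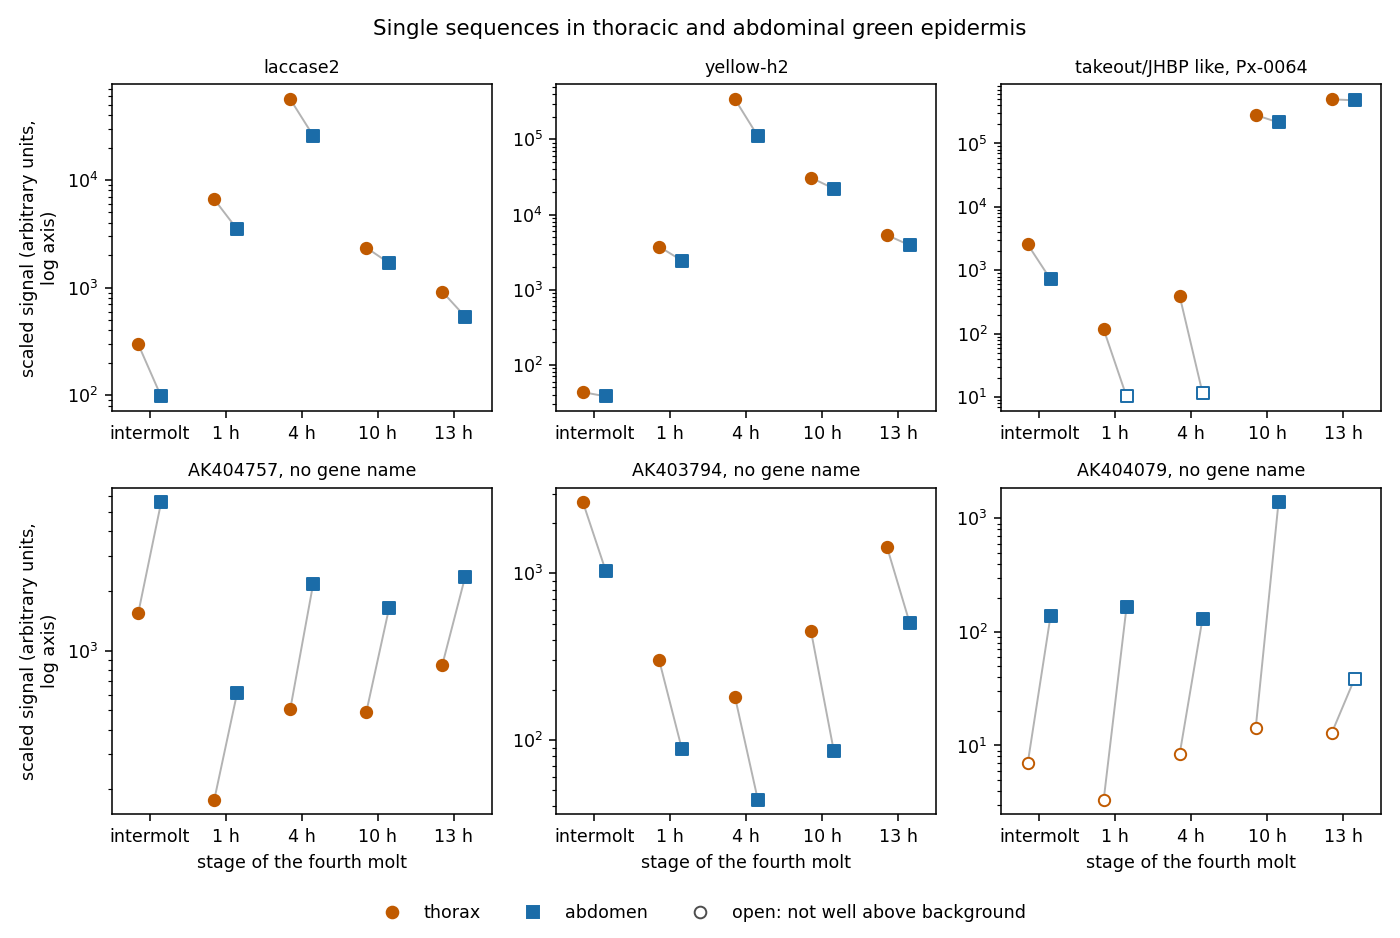
Scaled signal (log axis) of laccase2, yellow-h2, Px-0064 and 3 unnamed sequences in thoracic (left of each pair) and abdominal green epidermis at the 5 stages, with lines joining a pair and open symbols for samples not well above background. AK404757 lies lower and AK403794 lies higher in the thorax in all 5 pairs, and AK404079 is not well above background in any thoracic sample.

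Whether the difference between regions changed between the slide with intermolt and 1 h and the slide with 4, 10 and 13 h was tested next. Slide and molt time cannot be told apart here. With limma on the 5 stage differences no sequence passed, and 156 (4.85%) had an unadjusted p under 0.05. The green difference was also set against that of the markings on the same arrays. No sequence of 3210 passed, while 273 (8.5%) had an unadjusted p under 0.05. The eyespot and the V-shaped marking themselves differed by limma in no sequence after adjustment and in 528 (16.4%) before it. Muscle markers were lower in the eyespot as well, with a median of -0.88 for eyespot minus V-shaped marking.

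By size alone, 162 of 3378 sequences were more than 2-fold apart in the mean over stages with a mean signal above 1000, which was the study's kind of screen applied to the green regions and involves no test. Of these, 67 (1.98%) were higher in the thorax and 96 (2.84%) higher in the abdomen, with 1 counted both ways through different probes. Without scaling between arrays the split was 101 and 63, and without the dim corner 142 sequences were left, 53 higher in the thorax and 90 higher in the abdomen. With every probe, named genes made up 24 of the sequences higher in the thorax and 23 of those higher in the abdomen. Of those higher in the thorax 18 had the same direction in all 5 pairs, and of those higher in the abdomen 38 did. At 3-fold 41 sequences were left, and when every probe of a sequence had to pass 59 were left.

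**Figure D5:**
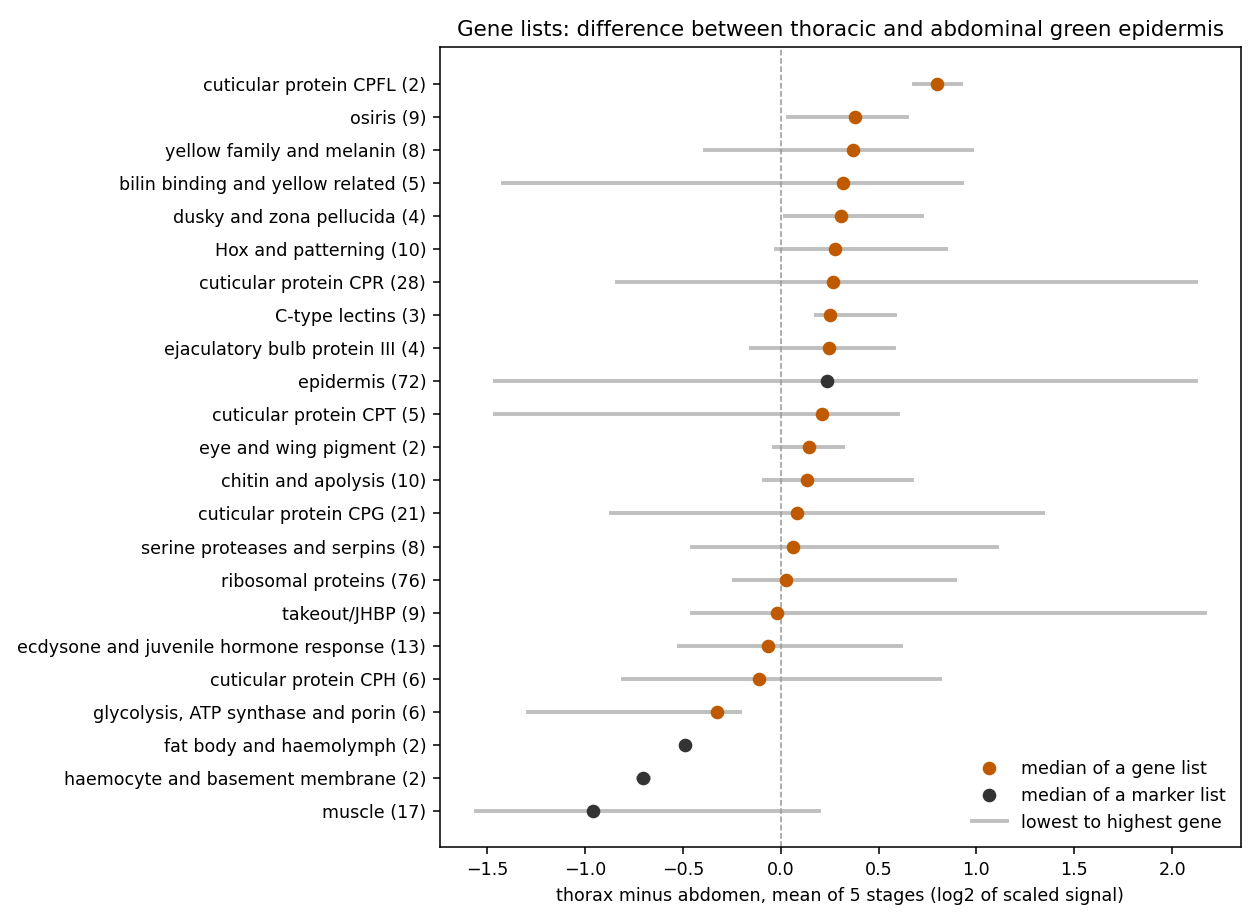
Log2 difference, thorax minus abdomen (mean over 5 pairs), of the gene and marker lists; points are list medians, bars run between the lowest and the highest gene, and numbers in brackets are genes tested. The muscle list has the lowest median, -0.96, while the medians of the osiris and patterning lists are 0.38 and 0.28.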

How the data were processed

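Total RNA was labelled with Cy3 (green regions) or Cy5 (markings) and hybridized, 2 samples to an array, to a custom oligonucleotide array of 15208 probes, of which 8697 stand for 3380 Papilio xuthus sequences. The deposited intensity values are those of Agilent Feature Extraction 9.5.3.1, per the file headers; the study's methods name an earlier version and a further normalization of the arrays. The authors' processed signal has the local background taken off and the 2 dyes of an array brought to each other, so that a green value is touched by the red sample on its array, and it is not scaled between arrays. Scanner flags (other deposited columns) gave outlier, saturated and well above background spots. The deposited ratio of the 2 dyes was not used, since both regions carry the green dye.

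The green signal of each of the 10 samples was scaled to a common 75th percentile. Probes had to be well above background in at least 3 of the 10 samples. A probe with an outlier-flagged spot was left out of all samples where its sequence had another probe without such a flag. Otherwise only the flagged spots were left out, and a sequence then without a value in any 1 sample was not tested. The log2 values were averaged over a sequence's probes. Differences were fitted with limma 3.58.1 in R 4.3.3 (lmFit, eBayes) with stage as a block, which pairs samples of equal age on the same slide, and Benjamini-Hochberg adjustment, threshold 0.05. The script was tested on simulated data. Tables were handled in Python 3.11.15. The titles of these arrays in the labels name the mimetic pattern, while their source, tissue and age labels name cryptic green skin of the fourth instar, and the tissue label was followed. Slide 1 held 4, 10 and 13 h, and slide 2 held intermolt and 1 h. Gene names come from the parts of the study's supplementary tables of clusters used here, which name 503 sequences; sequences without one there are called unnamed.

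The regions, gene lists and tests were chosen with earlier results of these data known. By rule the text names the 3 Hox genes, engrailed, the bilin binding proteins, yellow related gene, both putative carotenoid binding proteins, yellow, E75A and, past the threshold, the largest differences (at most 2 unnamed sequences each way); all other genes named with values were picked after their values were seen. The number of arrays limits the precision. The alternatives tried were other scalings, filters, probe summaries, blocks and subsets of the pairs.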

Additional observations from a re-analysis of the deposited data

Results flagged for a closer look

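Osiris 2 stood apart at 4 h. Its difference between thorax and abdomen was 1.27 at that stage, against 0.10 to 0.39 at the other stages, and the gap took 0.75 of the whole range, above Dixon's critical value of 0.71 for 5 values. It was the only one of 56 genes checked to do so, and chance alone marks about 1 in 20 such groups.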

How the results depend on the processing

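The count of sequences that differed between the regions (7) depended on the processing. It was 0 with no scaling between arrays, with centring on the ribosomal protein genes, without the stage pairing, and within slide 1 or slide 2 alone. It was 1 with the 75th percentile over probes well above background in all samples and with quantile normalization, 3 with no filter and 3 with the median of probes. It was 18 when a probe had to be well above background in all 10 samples. Tested probe by probe, 2 probes of 1 sequence passed. With stage as a random block it was 69, and 84 when the dim corner was left out too, an alternative chosen after seeing the data. With all 32 channels and array as a random block it was 153 (13 higher and 140 lower in the thorax). Leaving out any 1 of the 5 pairs gave 0 in each case. The smaller number of pairs is part of that setting's construction; for the other settings the cause was not tested. The count stayed within 1.5 times of 7 in the following alternatives. These were normexp, background-subtracted signal without dye normalization, a floor, the trend and robust setting and the dim corner left out. Leaving out saturated spots repeated the main fit, since no spot was saturated.

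The count of sequences whose green difference stood apart from the marking difference (0) was 2 with the percentile over probes well above background in all samples and, probe by probe, 2 probes of 1 sequence. The screen by size (162) gave 41 at 3-fold, 59 when every probe had to pass, and 134 to 198 without one pair. Sequences higher in the thorax at every stage kept numbered 236 to 398 without one pair, and those lower 389 to 486.

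Some single genes changed sign, none of them past the threshold in any of these. Engrailed read -0.093 with normexp, and -0.018 to 0.15 without one pair (lowest without 10 h). Putative carotenoid binding protein 2 read 0.13 with no scaling, 0.031 with the other percentile, 0.035 with quantile normalization, 0.074 with the median of probes, and -0.33 to 0.14 without one pair. Yellow read -0.0048 on slide 2, and -0.096 to 0.81 without one pair (lowest without 13 h). E75A read 0.082 with no scaling, 0.073 with normexp, 0.076 without dye normalization, 0.14 on slide 2, 0.066 without the dim corner under either block, and -0.23 to 0.041 without one pair. Larval serum protein 1 gamma read -0.95 to 0.22 without one pair (highest without 10 h). Over 55 named genes and 1155 alternatives, 1082 kept both direction and side of the threshold. Any of these that left out saturated spots repeated the main fit and could not change a value. Stage served as the replicate block in the main result; the replicate numbers in the labels only order the files.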
